A study of Mus musculus with 2 samples.

Results

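Hmga2, Hmga1, Lin28a, Lin28b, Igf2bp1, Igf2bp2 and Igf2bp3 were followed in single cells of mouse limb muscle tissue taken at 2 embryonic ages, E12.5 (the earlier library) and E15.5 (the later library). The 7 genes were chosen by name among the 32285 genes listed in both libraries. They were chosen because earlier results on these libraries had shown several of them lower at E15.5, so every difference between the ages is given here as a description and not as a test. Each age was 1 library of wild-type C57Bl/6 limb skeletal muscle, with forelimbs and hindlimbs together, and the labels name no genetic change and no treatment at either age. The number and sex of the embryos are not stated in the labels. With 1 library per age the age and the library cannot be told apart. Intervals are at the 95% level and reflect counting error alone.

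These genes are known as a module of early development. Lin28a and Lin28b encode RNA-binding proteins that block the maturation of let-7 microRNAs. The let-7 family in turn represses the messages of Lin28a and Lin28b themselves, of Hmga2 and of the Igf2bp genes, and let-7 levels are known to rise as embryos mature. Hmga2 and Hmga1 encode chromatin proteins that bind AT-rich DNA and are abundant in embryonic and dividing cells. Igf2bp1, Igf2bp2 and Igf2bp3 encode proteins that bind and stabilise messages such as Igf2, and Igf2bp2 is known to support the growth of skeletal muscle cells.

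The 7 genes have in common a match to the let-7 seed. Since they were chosen by name as genes of Lin28 and let-7 biology, and most are known let-7 targets, this match was largely fixed by the choice and is given as a description. A seed is bases 2 to 8 of a microRNA, which pair with target messages. The mature sequences below are from RefSeq (GRCm38.p6), with the seed in capitals, and show the common seed and the exception. In the table used, 10 of 11 let-7 and miR-98 sequences had the same seed, and let-7j differed in it.

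mmu-let-7a-5p: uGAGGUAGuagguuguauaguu
mmu-let-7g-5p: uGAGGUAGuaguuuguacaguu
mmu-let-7i-5p: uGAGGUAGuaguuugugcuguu
mmu-miR-98-5p: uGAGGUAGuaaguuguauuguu
mmu-let-7j: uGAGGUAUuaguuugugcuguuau

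The letters CTACCTC, the match to the common seed, were searched on the sense strand in the longest annotated 3′ untranslated region (UTR) of each gene in GENCODE vM21 (GRCm38). All 7 genes had at least 1 match, against 9.07% of 20869 protein-coding genes with an annotated UTR. Hmga2, Lin28b and Igf2bp1 had 4 matches each, a number of at least 3 that was reached by 0.153% of UTRs. Lin28a had 2 matches, and Hmga1, Igf2bp2 and Igf2bp3 had 1 each. Their UTRs were 1183 (Hmga1) to 6337 bases (Igf2bp1) long, against a median of 966 bases. The windows below, 1 per gene, end 1 base after the match, and capitals mark the match.

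Hmga2 (chr10:120364224-120364245, minus strand): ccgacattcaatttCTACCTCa
Hmga1 (chr17:27563278-27563299, plus strand): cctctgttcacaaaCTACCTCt
Lin28a (chr4:134005189-134005210, minus strand): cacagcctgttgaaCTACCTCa
Lin28b (chr10:45381022-45381043, minus strand): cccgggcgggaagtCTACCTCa
Igf2bp1 (chr11:95961778-95961799, minus strand): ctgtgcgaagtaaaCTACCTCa
Igf2bp2 (chr16:22059473-22059494, minus strand): cacacaaataaaagCTACCTCa
Igf2bp3 (chr6:49086787-49086808, minus strand): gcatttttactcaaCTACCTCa

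A match followed by A on the message, called an 8-base match, was found in 6 of the 7 genes and in 3.08% of all UTRs. The match in Hmga1 was followed by T. By identifier the genes are ENSMUSG00000056758 (Hmga2), ENSMUSG00000046711 (Hmga1), ENSMUSG00000050966 (Lin28a), ENSMUSG00000063804 (Lin28b), ENSMUSG00000013415 (Igf2bp1), ENSMUSG00000033581 (Igf2bp2) and ENSMUSG00000029814 (Igf2bp3). A match is a run of letters, and no binding was measured.

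After filtering, 11001 cells at E12.5 had a median of 2323 UMIs and 3916 cells at E15.5 had a median of 9325.5 UMIs. A UMI marks 1 captured RNA molecule. Only 17 barcodes occurred in both libraries (0.294% of the E15.5 barcodes). Cell classes were rebuilt by clustering each library without the 7 genes and named from marker genes, so each name stands for cells like that type. The 5 classes compared held at E12.5 and E15.5, in this order, 607 and 397 muscle-lineage cells, 7404 and 1551 connective tissue cells, 1030 and 642 chondrocytes, 133 and 152 endothelial cells, and 19 and 79 immune cells. Muscle markers such as Pax7, Msc and Myl1 led the muscle clusters at both ages, and Cdh5 and Pecam1 were among the leading genes of endothelial clusters. The names rest on weaker ground elsewhere. Of the connective tissue clusters, 7 of 10 in the earlier and all 5 in the later library had none of that class's markers among their 10 leading genes. Prrx1, Pdgfra, Osr1 and Twist2, which are not among those markers, were kept out of the clustering. At E15.5, 458 of the 642 chondrocytes lay in a cluster led by Mecom, Cpm and Dkk3, with Sox9 its only chondrocyte marker among the 10 leading genes. The immune class was 1 cluster of S100a9 and C1qb cells at E12.5. By E15.5 it comprised a cluster of 56 cells led by Lyz2 and C1qb and another of 23 led by S100a9. Levels are in CPM, for which the UMIs of a gene are divided by all UMIs of its class. The median over all genes assessed was itself lower in the later library, with a log2 ratio of -0.39 in muscle, -0.42 in connective tissue, -0.21 in chondrocytes, -0.23 in endothelial and -0.24 in immune cells. Ribosomal protein genes took 13.1% of the UMIs of kept cells in the earlier and 21.03% in the later library, and their part in that shift was not tested.

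Most of the 7 genes fell between the ages in muscle, connective tissue, chondrocytes and endothelial cells. A gene was called lower with a log2 ratio (E15.5 over E12.5) of -1 or less and an interval below 0, and was assessed with at least 10 UMIs over both ages. In muscle, 6 of 6 assessed genes were called lower, as were 19.1% of all genes assessed there. Connective tissue had 6 of 7 lower, against 25.7% of all genes. Chondrocytes had 5 of 6, against 14.5%, endothelial cells 6 of 6, against 11.1%, and immune cells 4 of 6, against 8.44%. The immune count is the least certain, since it includes Hmga2, whose level there was not above that of free RNA, and it was 2 with free RNA subtracted and 0 in cells thinned to 2000 UMIs. Scaled to the median gene of each class, the counts were 4 in muscle, 5 in connective tissue, 4 in chondrocytes, 5 in endothelial cells and 4 in immune cells. The shares of all genes given here are unscaled, so they cannot be set beside these scaled counts. Over all kept cells 6 of 7 were called lower, against 20.8% of all genes. None of the 7 was called higher in any class, where the shares of all genes were 3.65% in muscle, 9.66% in connective tissue, 10.3% in chondrocytes, 4.16% in endothelial cells, 3.4% in immune cells and 11.8% over all kept cells. Nothing is read from these shares, since the fall itself chose the genes. Outside connective tissue Lin28a had too few UMIs to be assessed in the 5 classes. The median log2 ratio of the assessed genes was -1.85 in muscle, -3.29 in connective tissue, -1.64 in chondrocytes, -1.5 in endothelial and -2.35 in immune cells.

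**Figure D1:**
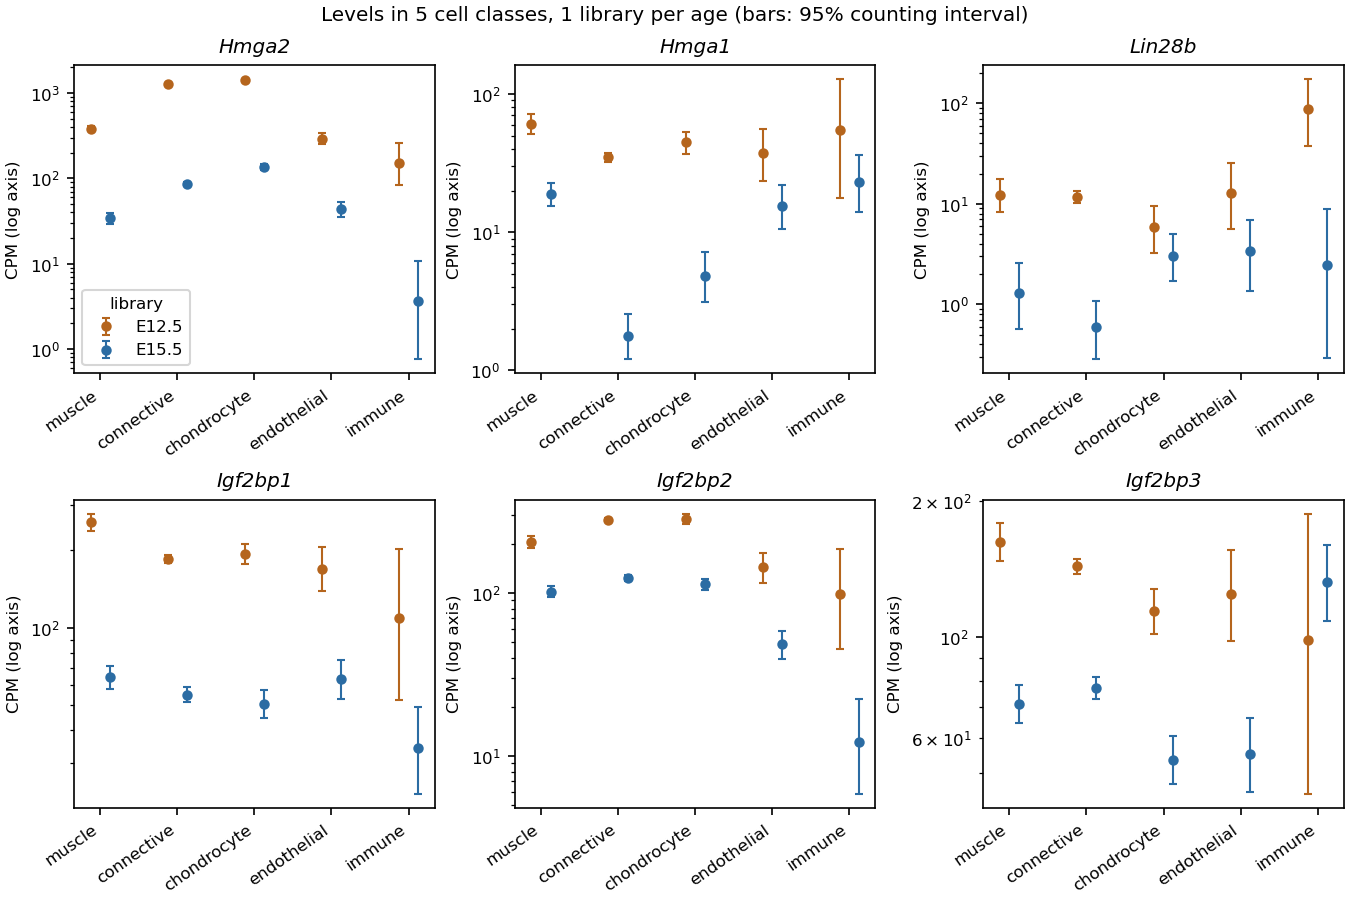
Level of 6 genes in 5 cell classes, in CPM on a log axis with a range of its own in each panel, at E12.5 (brown) and E15.5 (blue); points are 1 library each and bars are 95% counting intervals. Hmga2 at E15.5 sits between 3.67 and 137 CPM, below its lowest E12.5 level of 154 CPM, while Igf2bp3 in the immune class is 98.7 CPM in the earlier and 132 CPM in the later library.

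Hmga2 had the most UMIs of the 7 genes at E12.5 in each of the 5 classes. It was called lower in all 5, but in immune cells its level did not stand above free RNA at either age, and no fall is read there. In connective tissue its level was 1264 CPM (1248 to 1280) in the earlier and 86.6 CPM (82.2 to 91.1) in the later library, with a log2 ratio of -3.87 (-3.94 to -3.79). In chondrocytes it was 1406 CPM (1360 to 1452) and 137 CPM (127 to 147), with a log2 ratio of -3.36 (-3.48 to -3.24). In muscle it was 382 CPM (358 to 407) and 34.0 CPM (29.5 to 38.9), with a log2 ratio of -3.49 (-3.71 to -3.27). In this order these are falls of 14.6-fold, 10.3-fold and 11.2-fold. The chondrocyte value depends on how the cells were clustered, with a log2 ratio of -2.28 when both libraries were clustered together, -2.59 with all deposited barcodes and -3.85 at a coarser resolution. In endothelial cells Hmga2 was 292 CPM (251 to 338) and 43.5 CPM (34.97 to 53.4), with a log2 ratio of -2.75 (-3.13 to -2.38). In immune cells it rested on 14 UMIs in the earlier and 3 in the later library, or 154 CPM (83.9 to 258) and 3.67 CPM (0.756 to 10.7), with a log2 ratio of -5.39 (-7.83 to -3.55). The intervals of the ages did not overlap in any of the 5 classes.

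The classes kept nearly the same order of Hmga2 at both ages. At E12.5 chondrocytes stood highest, then connective tissue, muscle and endothelial cells, each apart from its neighbour by more than the counting intervals, while those of endothelial and immune cells overlapped. At E15.5 chondrocytes and connective tissue were again highest and the immune class lowest, and the intervals of endothelial and muscle cells overlapped. Across all genes assessed in a class, 1.18% in muscle, 1.61% in connective tissue, 0.917% in chondrocytes, 0.708% in endothelial cells and 0.0896% in immune cells had a log2 ratio lower than that of Hmga2. Nothing is read from these ranks, since the fall itself chose the genes. In immune cells, moreover, Hmga2 was not above free RNA at either age.

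The fall of Hmga2 differed in size between classes by more than counting error. It was larger in connective tissue than in endothelial cells, with a difference of log2 ratios of -1.12 (connective tissue minus endothelial, -1.5 to -0.73), and larger than in muscle, with 0.38 (muscle minus connective tissue, 0.14 to 0.61). Muscle and chondrocytes differed by -0.13 (-0.38 to 0.12), an interval that includes 0, and the chondrocyte value carries the limit above. Over the 6 pairs of classes without immune cells, 5 intervals excluded 0 for Hmga2. The numbers for the other genes were 5 for Hmga1, 3 for Lin28b, 3 for Igf2bp1, 2 for Igf2bp2 and 1 for Igf2bp3, in all 19 of 36 pairs. On the scale of the median gene those of Igf2bp2 and Igf2bp3 were 4 and 3. No adjustment for the number of pairs was made. The same count was not made over all genes, so these numbers are not read as particular to the genes named.

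**Figure D2:**
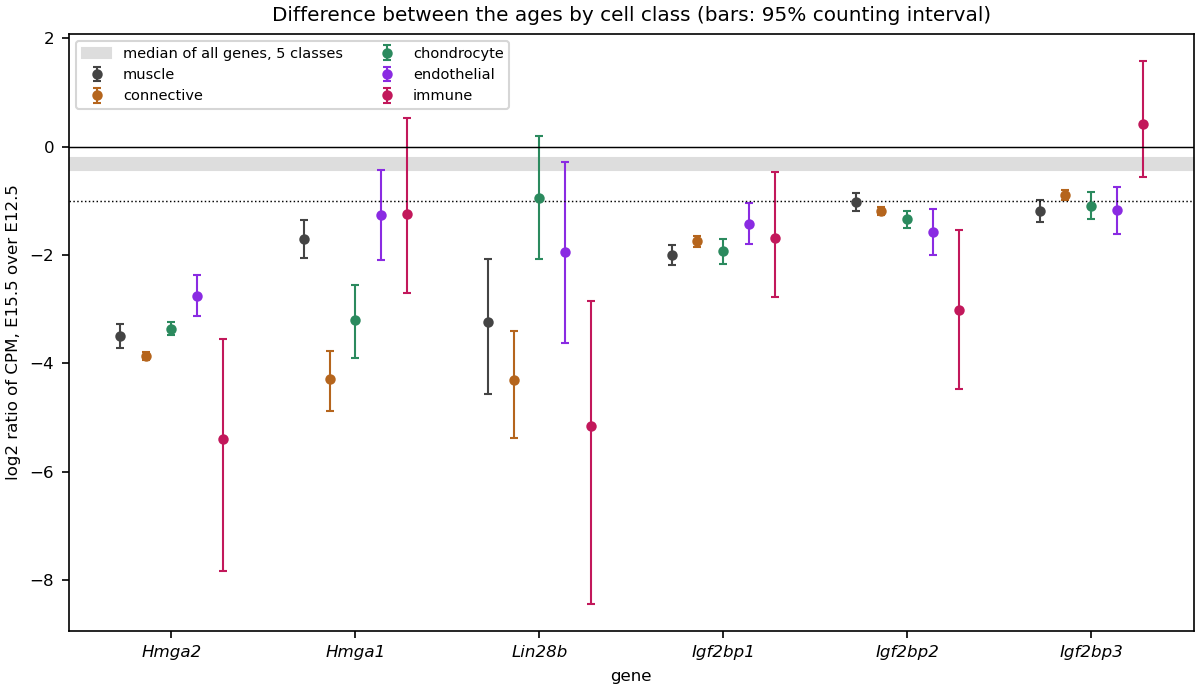
log2 ratio of CPM (E15.5 over E12.5) for 6 genes in 5 cell classes, with 95% counting intervals as bars; the grey band spans the medians of all genes (-0.42 to -0.21) and the dotted line marks -1. Hmga2 lies between -2.75 and -5.39, Igf2bp1 between -1.42 and -2.0, and the immune value of Igf2bp3 is 0.42.

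Hmga1, the close relative of Hmga2, had far fewer UMIs and its fall was uneven. In connective tissue it was 34.9 CPM (32.3 to 37.7) in the earlier and 1.78 CPM (1.20 to 2.54) in the later library, with a log2 ratio of -4.29 (-4.87 to -3.77). In chondrocytes it was 44.6 CPM (36.8 to 53.5) and 4.84 CPM (3.10 to 7.20), with a log2 ratio of -3.20 (-3.90 to -2.56). In muscle it was 61.1 CPM (51.8 to 71.5) and 18.8 CPM (15.51 to 22.5), with a log2 ratio of -1.70 (-2.06 to -1.34). The log2 ratios of muscle and connective tissue differed by 2.59 (muscle minus connective tissue, 1.95 to 3.27). Endothelial cells had 37.2 CPM (23.6 to 55.8) and 15.46 CPM (10.6 to 21.8), with a log2 ratio of -1.27 (-2.08 to -0.43). In immune cells the values were 54.8 CPM (17.8 to 128) from 5 UMIs and 23.2 CPM (13.98 to 36.3), and the interval of the log2 ratio of -1.24 (-2.71 to 0.54) included 0. Hmga1b, a near-identical copy on chromosome 11 with 27 and 22 UMIs over all kept cells, could share reads with Hmga1, so Hmga1 is less certain than the others.

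Lin28b was scarce, and its paralogue Lin28a almost absent. Lin28b fell in connective tissue from 222 to 10 UMIs, or 11.7 CPM (10.2 to 13.4) to 0.593 CPM (0.284 to 1.09), with a log2 ratio of -4.31 (-5.39 to -3.40). In muscle it fell from 31 to 8 UMIs, or 12.3 CPM (8.35 to 17.5) to 1.31 CPM (0.564 to 2.57), with a log2 ratio of -3.23 (-4.57 to -2.08). In endothelial cells 8 UMIs in the earlier and 7 in the later library gave 12.9 CPM (5.58 to 25.5) and 3.38 CPM (1.36 to 6.97), with a log2 ratio of -1.93 (-3.63 to -0.28). Chondrocytes had 15 UMIs at each age, 5.82 CPM (3.26 to 9.60) and 3.02 CPM (1.69 to 4.99), and the log2 ratio of -0.94 (-2.08 to 0.19) was not called. The highest Lin28b level of the 5 classes was that of the immune class at E12.5, with 87.7 CPM (37.9 to 173) from 8 UMIs in 6 of 19 cells, against 2.44 CPM (0.296 to 8.83) from 2 UMIs at E15.5. Lin28a had 15 UMIs in all kept cells in the earlier and 3 in the later library. Of these, 11 and 1 UMIs were in connective tissue, with a log2 ratio of -3.29 (-8.72 to -0.51). In muscle, endothelial and immune cells Lin28a had 0 UMIs at both ages, which in muscle allows up to 1.19 CPM in the earlier and 0.490 CPM in the later library by a limit of 3 counts.

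The Igf2bp genes were detected in every class at E12.5 and their ratios were nearer 0 than those of Hmga2. The log2 ratios of Igf2bp1 spanned -2.0 to -1.42 over the 5 classes. In muscle Igf2bp1 was 257 CPM (238 to 278) in the earlier and 64.4 CPM (58.2 to 71.0) in the later library, with a log2 ratio of -2.0 (-2.18 to -1.82). In connective tissue it was 185 CPM (179 to 191) and 55.1 CPM (51.6 to 58.8), with a log2 ratio of -1.75 (-1.85 to -1.64). In chondrocytes it was 193 CPM (177 to 211) and 50.6 CPM (44.5 to 57.3), with a log2 ratio of -1.93 (-2.16 to -1.71). Muscle had the highest level of Igf2bp1 among the 5 classes at E12.5, while the E15.5 intervals of muscle and endothelial cells overlapped. Endothelial cells had 170 CPM (139 to 205) and 63.3 CPM (52.9 to 75.1), with a log2 ratio of -1.42 (-1.80 to -1.04). Immune cells had 110 CPM (52.6 to 202) from 10 UMIs and 34.2 CPM (22.7 to 49.5) from 28 UMIs, with a log2 ratio of -1.68 (-2.77 to -0.47).

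Igf2bp2, the family member with a known part in muscle growth, had its ratio nearest to 0 in muscle, though the interval of the difference from connective tissue (0.16, -0.02 to 0.35) includes 0. In muscle it was 206 CPM (189 to 225) in the earlier and 102 CPM (94.1 to 110) in the later library, with a log2 ratio of -1.02 (-1.19 to -0.85) that lies at the edge of the rule. In connective tissue it was 279 CPM (272 to 287) and 123 CPM (118 to 129), with a log2 ratio of -1.18 (-1.25 to -1.10). Chondrocytes had 286 CPM (266 to 307) and 113 CPM (104 to 122), with a log2 ratio of -1.34 (-1.50 to -1.18). In endothelial cells the level went from 144 CPM (115 to 177) to 48.3 CPM (39.3 to 58.8), with a log2 ratio of -1.57 (-2.0 to -1.14). The immune class had 98.7 CPM (45.1 to 187) from 9 UMIs and 12.2 CPM (5.86 to 22.5) from 10 UMIs, with a log2 ratio of -3.01 (-4.47 to -1.54).

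Igf2bp3 was the only one of the 7 genes with a log2 ratio above 0 in any of the 5 classes. It was 162 CPM (147 to 179) in the earlier and 71.2 CPM (64.7 to 78.2) in the later library in muscle, with a log2 ratio of -1.19 (-1.39 to -0.99). In connective tissue it was 143 CPM (138 to 149) and 77.3 CPM (73.1 to 81.6), with a log2 ratio of -0.89 (-0.99 to -0.79) that misses the 2-fold rule. Chondrocytes and endothelial cells had log2 ratios of -1.09 (-1.33 to -0.84) and -1.18 (-1.61 to -0.74). Immune cells had 98.7 CPM (45.1 to 187) from 9 UMIs in the earlier and 132 CPM (108 to 159) from 108 UMIs in the later library, with a log2 ratio of 0.42 (-0.56 to 1.59). This differed from the muscle value by -1.61 (muscle minus immune, -2.79 to -0.61), and the intervals against connective tissue, chondrocytes and endothelial cells also excluded 0. At E15.5, 107 of the 108 immune UMIs of Igf2bp3 were in the cluster led by Lyz2, C1qb and C1qc, genes of macrophages. Its level there, 137 CPM (112 to 165), was the highest of the 25 clusters at that age. The same immune cells had Igf2bp2 at 12.2 CPM and Hmga2 at 3.67 CPM, each the lowest level among the 5 classes.

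Scaled to the median gene of each class, the falls were smaller by 0.21 to 0.42. On that scale the log2 ratios of Igf2bp2 were -0.63 in muscle and -0.76 in connective tissue, and those of Igf2bp3 -0.80 and -0.47, with -0.87 in chondrocytes and -0.94 in endothelial cells. So Igf2bp2 in muscle and connective tissue, and Igf2bp3 in muscle, chondrocytes and endothelial cells, were no longer called lower. The values of Hmga2 were -3.11 in muscle and -3.45 in connective tissue. No direction changed with this scaling in the 5 classes.

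The level of Hmga2 varied widely among clusters of 1 library. The 10 connective tissue clusters of E12.5 ran from 699 CPM (led by Gdf5, a joint gene) over a median of 1269 CPM to 1804 CPM (led by Calb2 and Dkk2). The 5 connective tissue clusters of E15.5 ran from 20.1 CPM (led by Dpt, Apod and Cd55) over 91.0 CPM to 142 CPM (led by Aldh1a3 and Ngfr). The ages did not overlap in these clusters, and the same held for the other genes except Lin28a. How many of all genes separate in this way was not counted, so nothing is read from it. Clusters of 1 library are not replicates. The highest E15.5 clusters were chondrocytes led by Col2a1 and Matn1, with 229 CPM (195 to 267), and Schwann cells, with 221 CPM (194 to 251). Igf2bp1 and Igf2bp2 were flatter, from 147 to 231 CPM and from 188 to 306 CPM over the E12.5 connective tissue clusters.

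**Figure D3:**
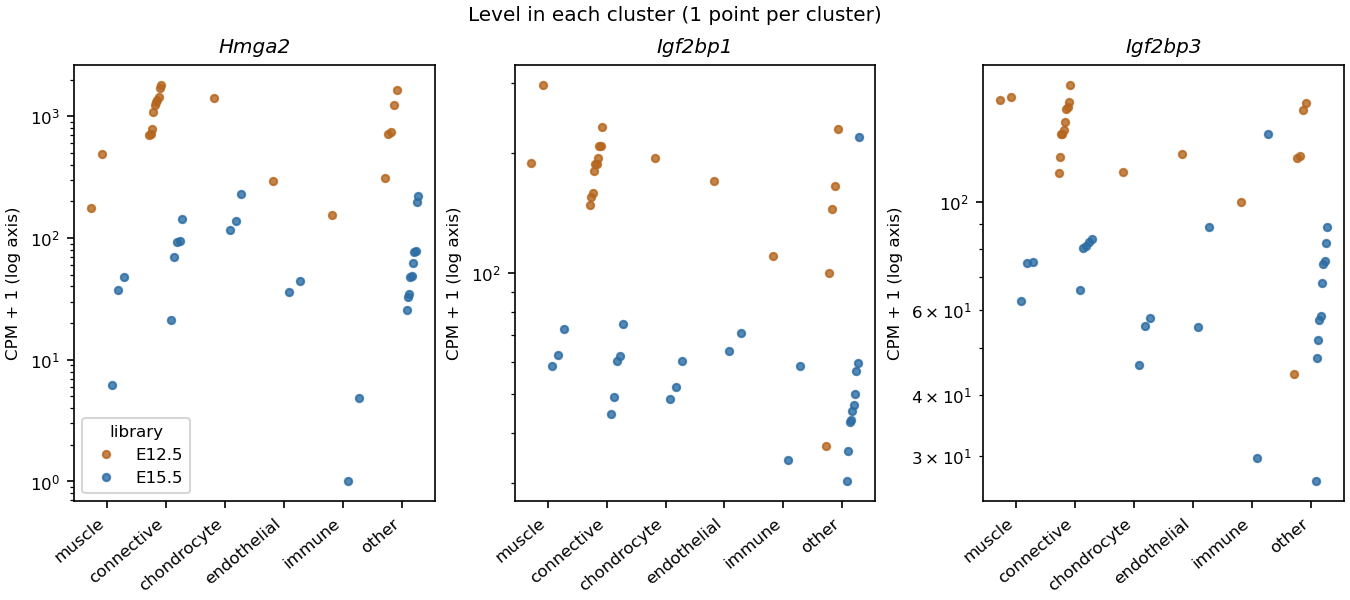
Level of Hmga2, Igf2bp1 and Igf2bp3 in each cluster, as CPM + 1 on a log axis with a range of its own in each panel, by class; points are clusters of the E12.5 (brown) or E15.5 (blue) library and not replicates. In connective tissue the 10 E12.5 clusters of Hmga2 (699 to 1804 CPM) lie above the 5 E15.5 clusters (20.1 to 142 CPM), and the immune cluster with Igf2bp3 at 137 CPM stands above all other E15.5 clusters.

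Within muscle, Hmga2 and Hmga1 were higher in Pax7-led than in Mylpf-led clusters at both ages. This split, chosen after its values were seen, sets clusters with Pax7, the transcription factor of muscle progenitors, among their leading genes against those with Mylpf, a myosin light chain of fibres. At E12.5 Hmga2 was 493 CPM (460 to 529) in 400 Pax7-led cells and 174 CPM (147 to 204) in 207 Mylpf-led cells, 2.84-fold higher in the former. At E15.5 it was 42.0 CPM (36.4 to 48.2) in 308 Pax7-led cells and 5.26 CPM (2.11 to 10.8), from 7 UMIs, in 89 Mylpf-led cells. The latter interval includes 2.75 CPM, the level gauged for free RNA in the muscle class, so the Mylpf-led cells are not shown to hold Hmga2 above background at E15.5. From E12.5 to E15.5 the log2 ratio was -3.56 (-3.79 to -3.33) in Pax7-led and -5.05 (-6.39 to -3.97) in Mylpf-led cells, the latter with that limit on its E15.5 level.

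Hmga1 was 3.81-fold higher in Pax7-led than in Mylpf-led cells in the earlier and 3.27-fold higher in the later library. Igf2bp2 showed a widening split, with 236 CPM (213 to 261) against 150 CPM (126 to 178) in the earlier and 119 CPM (110 to 130) against 39.0 CPM (29.2 to 51.2) in the later library. For Igf2bp3 the log2 ratio of Pax7-led over Mylpf-led cells was 0.03 (-0.27 to 0.33) in the earlier and 0.26 (-0.09 to 0.63) in the later library, and both intervals include 0. Igf2bp1 lay between, with 1.57-fold more in Pax7-led cells in the earlier and an interval that included 0 in the later library (log2 ratio 0.19, -0.17 to 0.57). The proliferation genes moved with this split, and their part in it was not tested. They summed to 1548 CPM in Mylpf-led and 6040 CPM in Pax7-led cells at E12.5, and to 824 CPM in Mylpf-led cells against 3932 and 7138 CPM in the 2 Pax7-led clusters at E15.5.

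Counts of cells gave the same order as CPM. With each cell thinned to 2000 UMIs, Hmga2 was detected in 82.8% (81.7 to 83.8) of connective tissue cells in the earlier and 13.5% (11.8 to 15.3) in the later library, with Clopper-Pearson intervals. The shares in muscle were 47.3% (43.1 to 51.5) and 6.14% (3.97 to 8.996), in chondrocytes 87.1% (84.3 to 89.5) and 19.7% (16.6 to 23.0), and in endothelial cells 45.3% (36.1 to 54.8) and 8.40% (4.27 to 14.5). Without thinning, connective tissue had 80.2% and 40.5%, and muscle 65.7% and 30.7%. Thinning left out 2544 of 7404 connective tissue and 49 of 607 muscle cells at E12.5, and 5 and 6 cells at E15.5. In immune cells 5 of 19 (26.3%) had a UMI in the earlier and 0 of 58 in the later library. By the limit of 3 counts this allows a share of up to 5.17% with a UMI after thinning, and the upper Clopper-Pearson bound is 6.16%. Without thinning 3 of 79 (3.80%) had one.

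Free RNA from connective tissue could give some of these UMIs in other cells. Its size was gauged from Prrx1, Pdgfra, Osr1 and Twist2, connective tissue genes whose summed level in a class was divided by that in connective tissue and multiplied by the connective tissue level of each gene. In erythroid cells, which have globin genes as their leading genes, the gauge gave 303 CPM of Hmga2 at E12.5, and 311 CPM (225 to 418) was measured in 46 cells. At E15.5 it gave 20.04 CPM, and 47.6 CPM (25.3 to 81.4) was measured in 18 cells, 2.37 times as much. Igf2bp1 was 4.59 times, Hmga1 35.6 times and Lin28b 133 times the gauged level in those 18 cells, from 16, 4 and 5 UMIs. These UMIs lay in 8, 2 and 1 of the cells, in this order. The gauge thus did not account for the erythroid levels of Hmga2 and Igf2bp1 in the later library. The values of Hmga1 and Lin28b rest on too few cells to speak for the class. After thinning, 14 of 40 erythroid cells in the earlier (an interval of 20.6% to 51.7%) and 5 of 18 in the later library (27.8%, 9.69 to 53.5) had a UMI of Hmga2. The E12.5 shares of connective tissue and chondrocytes lay above that interval, while those of muscle, endothelial and immune cells lay within it. At E15.5 the shares of all 5 classes were below the erythroid share, and those of connective tissue and chondrocytes lay within its interval. Hmga2 in erythroid cells was above the gauge at E15.5, and whether it was background alone was not tested. Outside connective tissue, shares within or below the erythroid interval are not told apart from background. No expression of Hmga2 is thus read from the E15.5 shares of those classes, nor from the E12.5 shares of muscle, endothelial and immune cells. Connective tissue is the source assumed for the free RNA, so this reading does not apply to it. By CPM at E15.5, connective tissue (86.6, 82.2 to 91.1) and chondrocytes (137, 127 to 147) lay above the erythroid interval of 25.3 to 81.4. The median depth was 2655.5 UMIs in erythroid cells at E12.5 against 3772 in muscle, 3830 in endothelial and 4638 in immune cells.

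By the gauge, which allows for how much connective tissue RNA each class holds, Hmga2 in muscle and endothelial cells was above the free RNA level. At E12.5 the measured level was 3.75 times that of free RNA in muscle (382 against 102 CPM) and 5.30 times in endothelial cells (292 against 55.2 CPM). At E15.5 it was 12.3 and 29.7 times the gauged level, values that rest on a gauge under which erythroid cells were also high. Set directly against erythroid cells, whose own log2 ratio of Hmga2 was -2.71 (-3.73 to -1.78), the CPM intervals of muscle and endothelial cells overlapped at both ages. The 4 connective tissue genes summed at E15.5 to 139 CPM in erythroid, 19.1 CPM in muscle and 10.1 CPM in endothelial cells. With the gauged free RNA subtracted the log2 ratio of Hmga2 was -3.24 (-3.48 to -3.01) in muscle and -2.54 (-2.94 to -2.14) in endothelial cells. In the immune class the interval of Hmga2 included the free RNA level at both ages, 125 CPM in the earlier and 1.06 CPM in the later library, so no fall of Hmga2 in immune cells is read from these data. The other genes with UMIs in immune cells were above it at E12.5, from 3.58 times (Igf2bp2) to 75.8 times (Lin28b). The gauge cannot be used in chondrocytes, where the 4 connective tissue genes were at 74.8% and 85.6% of their connective tissue level.

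**Figure D4:**
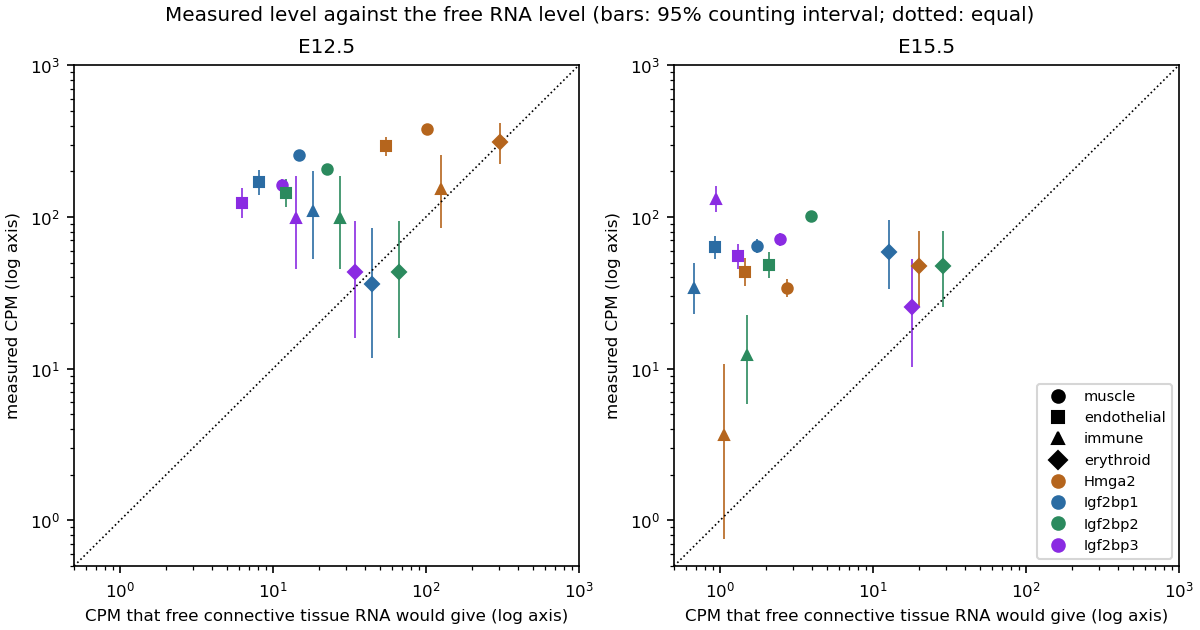
Measured CPM against the CPM that free connective tissue RNA would give, both on log axes, for 4 genes (colours) in 4 classes (symbols) at E12.5 and E15.5; bars are 95% counting intervals and the dotted line marks equal values. Hmga2 at E12.5 lies on the line in erythroid (311 against 303 CPM) and close to it in immune cells (154 against 125 CPM), and above it in muscle and endothelial cells. At E15.5 erythroid cells lie above the line too (47.6 against 20.04 CPM).

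The fall of Hmga2 was present in cells with and without signs of division. Cells were split by a UMI of Top2a or Mki67, genes of dividing cells, after thinning to 2000 UMIs. In muscle the log2 ratio was -3.39 (-3.66 to -3.13) in cells with and -3.62 (-4.04 to -3.21) in cells without such a UMI. In connective tissue it was -3.88 (-4.01 to -3.75) and -3.97 (-4.07 to -3.87), and in chondrocytes -3.31 (-3.52 to -3.10) and -3.45 (-3.60 to -3.30). The sum of 25 proliferation genes moved differently between classes, from 4473 to 4640 CPM in muscle, from 4661 to 2627 CPM in connective tissue and from 2095 to 2992 CPM in chondrocytes. Of the 25 genes, 0 were called lower in muscle (1 higher), 5 in connective tissue and 3 in chondrocytes (14 higher). The shares of all genes called lower were 19.1%, 25.7% and 14.5% in these classes, and 10.3% of all genes were called higher in chondrocytes. In these classes the counts of lower genes are thus no larger in share than those of all genes. In endothelial cells 3 of the 25 were called lower, against 11.1% of all genes. In immune cells 8 were called lower, against 8.44% of all genes. In each of these 2 classes 1 was called higher, against 4.16% and 3.4% of all genes. In connective tissue Mki67, Cenpe, Bub1 and Top2a, genes of mitosis, had log2 ratios of -1.77 (-1.83 to -1.72), -1.63 (-1.72 to -1.55), -1.6 (-1.77 to -1.43) and -1.06 (-1.10 to -1.02).

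Of 20 genes of microRNA processing, a list of enzymes and partners that make, load or destroy microRNAs, 10 were called lower and 0 higher in connective tissue, and 10 and 0 in muscle, where 25.7% and 19.1% of all genes were called lower. Its median log2 ratio was -0.98 in both classes, against -0.42 and -0.39 over all genes. Trim71, a let-7 target that acts beside Lin28, had a log2 ratio of -2.09 (-2.76 to -1.47) in connective tissue and -4.55 (-6.91 to -2.86) in muscle, from 29 to 3 UMIs. Dicer1, which cuts microRNA precursors, went from 179 to 43.2 CPM in connective tissue, with a log2 ratio of -2.05 (-2.17 to -1.94). Drosha and Dgcr8, the nuclear partners of the first cut, had log2 ratios of -1.77 (-1.92 to -1.63) and -1.37 (-1.55 to -1.18). In chondrocytes 7 of 20 were called lower, in endothelial cells 4 of 19 (Drosha, Dicer1, Trim71 and Ago2) and in immune cells 3 of 17 (Tut4, Ago2 and Ddx17), with none higher. Of all genes 14.5%, 11.1% and 8.44% were called lower in these classes.

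Mature let-7 was not measured by these libraries, which capture messages with a poly(A) tail. Of 6 transcripts chosen as possible let-7 hosts (Mirlet7bhg, Mir99ahg, Mir100hg, Mirlet7d, Rtl1 and Huwe1), 4 were listed in the libraries. Whether all 6 carry a let-7 precursor was not checked. Mir100hg, the host of let-7a-2, fell in connective tissue from 420 to 129 CPM, with a log2 ratio of -1.71 (-1.77 to -1.64). Huwe1, a ubiquitin ligase gene that hosts let-7f-2 and miR-98, had a log2 ratio of -1.39 (-1.46 to -1.32). Mir99ahg, the host of let-7c-1, was not called, with 170 and 119 CPM and a log2 ratio of -0.52 (-0.60 to -0.44). Of the 4 listed, 3 were called lower in muscle, 2 in connective tissue and 2 in chondrocytes, against 19.1%, 25.7% and 14.5% of all genes. In endothelial cells it was 2 of 3 assessed, against 11.1%, and in immune cells 1 of 2, against 8.44%. None was called higher in any of the 5 classes, where 3.4% (immune) to 10.3% (chondrocytes) of all genes were.

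Among 20 other reported let-7 targets, 10 were called lower and 0 higher in connective tissue, 9 of 19 lower in muscle, 10 of 20 in chondrocytes, 5 of 18 in endothelial cells (Arid3a, Arid3b, Cdk6, Tgfbr1 and E2f5) and 6 of 18 in immune cells. The shares of all genes called lower were, in the same order, 25.7%, 19.1%, 14.5%, 11.1% and 8.44%. The median log2 ratio of the targets was -1.04 in connective tissue, -0.97 in muscle, -0.97 in chondrocytes, -0.85 in endothelial and -1.06 in immune cells, against -0.42, -0.39, -0.21, -0.23 and -0.24 over all genes. Mycn, a growth-promoting transcription factor, went from 12.2 to 0.712 CPM in connective tissue, with a log2 ratio of -4.10 (-5.07 to -3.27), and from 30.9 to 12.3 CPM in muscle, with a log2 ratio of -1.34 (-1.81 to -0.86). Nr6a1, an embryonic nuclear receptor with 8 seed matches, the most of any UTR searched, had a log2 ratio of -2.24 (-3.22 to -1.37) in connective tissue. The chromatin factor Arid3b and the cell cycle kinase Cdk6 had log2 ratios of -2.02 (-2.47 to -1.60) and -1.98 (-2.21 to -1.75). In endothelial cells 1 target, the growth factor response gene Myc, was called higher, with a log2 ratio of 1.43 (0.10 to 3.12).

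In connective tissue, genes with more let-7 seed matches had lower median ratios, and so did those with matches to another microRNA. With the 7 genes left out, the median log2 ratio there was -0.35 over 12805 genes with 0 matches, -0.49 over 1298 genes with 1 and -0.73 over 185 genes with 2 or more. The shares called lower were 22.2%, 26.3% and 40%. The median UTR length rose with them, from 1086 to 2237.5 and 3637 bases. Matches to the seed of miR-9-5p, ACCAAAG, gave medians of -0.34, -0.54 and -0.64 for 0, 1 and 2 or more. Among UTRs of at least 3000 bases, a subset chosen after seeing these values, the medians were -0.68 with 0 let-7 matches, -0.78 with 1 and -0.86 with 2 or more, and -0.68, -0.73 and -0.76 for miR-9-5p. Other classes did not all share this order among long UTRs. In muscle the let-7 medians were -0.69, -0.79 and -0.78, and in immune cells they went the other way, with -0.44, -0.42 and -0.31. In chondrocytes they were -0.43, -0.50 and -0.65, while those of miR-9-5p went the other way, with -0.48, -0.45 and -0.36. Endothelial cells had let-7 medians of -0.53, -0.54 and -0.70. Those of miR-9-5p were also lower with more matches in muscle (-0.69, -0.75 and -0.79) and endothelial cells (-0.52, -0.55 and -0.67). In immune cells they were -0.44, -0.36 and -0.49. The difference between let-7 and miR-9-5p was not tested.

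**Figure D5:**
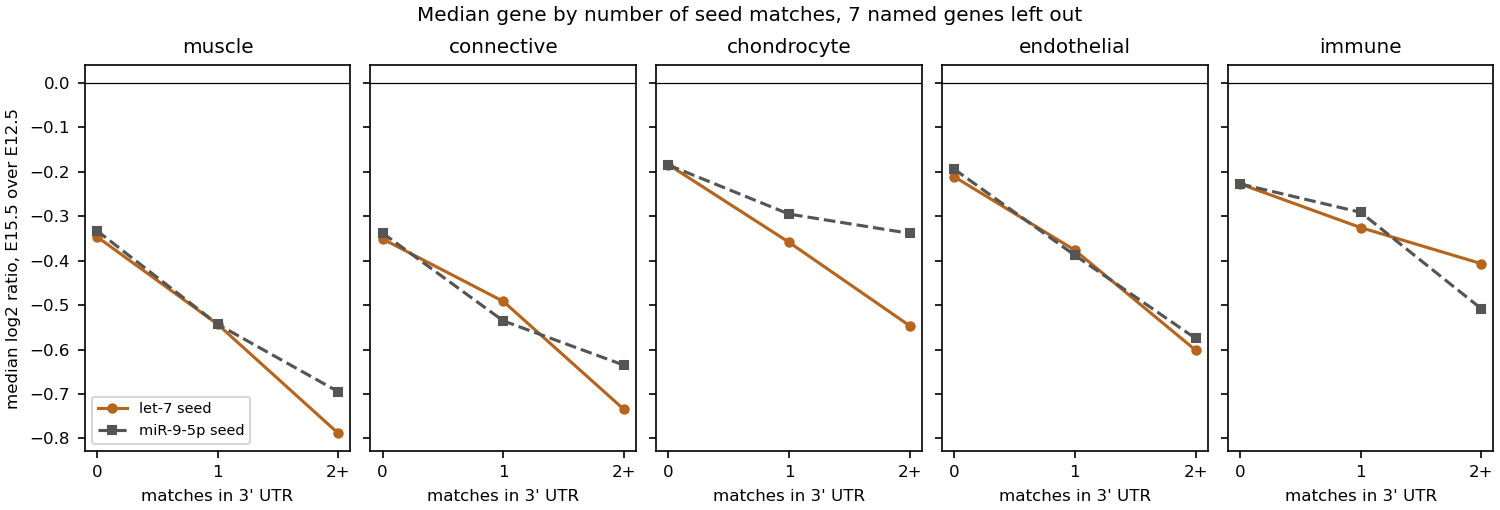
Median log2 ratio (E15.5 over E12.5) of genes with 0, 1 and 2 or more matches to the let-7 seed (brown) or the miR-9-5p seed (grey) in their 3′ UTR, in 5 cell classes, with the 7 named genes left out. In connective tissue the let-7 medians go from -0.35 to -0.73 and those of miR-9-5p from -0.34 to -0.64.

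Other genes near the 7 by family or function did not share one direction. Of 11 other HMG chromatin proteins, 2 were called lower in connective tissue, namely Hmgb3 with a log2 ratio of -1.85 (-1.93 to -1.77) and Hmgxb4 with -1.07 (-1.21 to -0.94), and 0 in muscle, chondrocytes and endothelial cells. This is no larger than the 25.7% of all genes called lower in connective tissue. Hmgn3, a nucleosome-binding protein, was called higher in endothelial cells, with a log2 ratio of 1.27 (0.47 to 2.19). Hmgb2, a chromatin protein of dividing cells, had log2 ratios of 0.66 (0.60 to 0.71) in muscle and -0.60 (-0.63 to -0.57) in connective tissue. Of 10 RNAs reported to be bound by Igf2bp proteins, 1 was called lower and 2 higher in connective tissue, against 25.7% and 9.66% of all genes. Ccnd1, a cyclin of early cell cycle entry, had -1.75 (-1.82 to -1.69), its relative Ccnd3 1.5 (1.42 to 1.58), and the adhesion receptor Cd44 3.80 (3.55 to 4.07), from 7.24 to 101 CPM. In muscle 5 of these 10 were called lower (Igf2, H19, Ccnd1, Btrc and Mapk4) and Cd44 higher, against 19.1% and 3.65% of all genes. Igf2, the growth factor for which the family is named, had log2 ratios of -1.56 (-1.63 to -1.49) in muscle and -0.81 (-0.84 to -0.79) in connective tissue, and H19 -1.09 (-1.15 to -1.03) and -0.36 (-0.39 to -0.34).

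Of 8 genes reported downstream of Hmga2, 7 were assessed in connective tissue, where 2 were called higher and 1 lower, against 9.66% and 25.7% of all genes. Junb, an AP-1 transcription factor, went from 132 to 587 CPM, with a log2 ratio of 2.15 (2.09 to 2.22), and Cdkn2b, an inhibitor of cell cycle entry, from 5 to 17 UMIs, with a log2 ratio of 1.93 (0.43 to 3.73). Igf1r, the receptor of insulin-like growth factors, had a log2 ratio of -1.42 (-1.50 to -1.34). In muscle 2 of 6 assessed were called lower, Snai1 with a log2 ratio of -1.28 (-1.86 to -0.70) and Plag1 with -1.18 (-1.59 to -0.76), against 19.1% of all genes. Genes named for muscle or endothelial cells alone in these lists were picked after their values were seen.

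The genes whose levels followed Hmga2 most closely over the 5 classes and both ages were S100pbp (Pearson r 0.99), Tnrc6b (0.99), Ubxn7 (0.98), Zfp292 (0.98) and Trp53bp1 (0.98), among 6853 genes. These correlations are over 10 points that share 2 libraries and are given as a description. Igf2bp2 (0.92) and Igf2bp1 (0.87) came closest to Hmga2 among the other 6 genes. Igf2bp3 (0.42) and Lin28b (0.30) followed it less. The genes most like Igf2bp1 were Ubr4 (0.98), Usp47 (0.98), Mbtd1 (0.97), Prpf3 (0.97) and Pibf1 (0.97), and those most like Igf2bp3 were Gapvd1 (0.91), Kat7 (0.91), Brd7 (0.90), Setdb1 (0.89) and Cmtr1 (0.89). Those most like Lin28b, Sap30bp (0.98), Arih2 (0.98), Dhx16 (0.97), Slu7 (0.96) and Ccdc9 (0.95), had the immune class of E12.5 with its 8 UMIs of Lin28b among their points.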

How the data were processed

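Single-cell 3′ libraries of E12.5 and E15.5 limb muscle tissue, 1 per age, were analysed from the raw UMI counts that the authors deposited, made with Cell Ranger 4.0.0 per the file headers. The submitters' processing notes also name build mm10 and Seurat 4.3.0. The annotation release and the cell-calling settings are not given in the sources used here. Cells with at least 500 genes and under 10% mitochondrial UMIs were kept, and 1270 and 190 likely doublets, the highest Scrublet-like scores, were removed. Each library was clustered with 2000 variable genes, 30 principal components, 15 neighbours and the Leiden method at resolution 1.0 (scikit-learn 1.9.0, leidenalg 0.10.2). The 7 genes, Hmga1b and all listed genes were left out of the variable genes.

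A cluster was named where at least 3 markers were 2-fold above the other clusters and 1 was among its 10 leading genes. Connective tissue clusters needed 3 markers 2-fold above the named clusters of other lineages and no leading markers of another class in greater number, and 1721 and 671 cells stayed unnamed. UMIs were summed per class and library. CPM have exact Poisson intervals, log2 ratios the exact conditional interval, and differences of ratios the combined (MOVER) interval. A count of 0 was set to 3 counts in a ratio. Without replicates no test was made. PCR copies are removed by UMIs, but intervals cover counting error only. Scripts were tested on simulated data.

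The 7 genes, the gene lists and the naming rule were chosen with earlier results of these data known. Named list genes are up to 4 per list with the largest ratio called in connective tissue, and genes added outside this rule (Igf2, H19, Hmgb2, Mir99ahg) were chosen after their values were seen. Genes called most alike had a mean of at least 20 CPM. Of 32285 identifiers, 32158 were found in GENCODE vM21 (GRCm38). Hmga1 overlaps AI413582, Igf2bp3 overlaps Malsu1, and Hmga2, Lin28a and Igf2bp1 overlap non-coding genes on the opposite strand, and whether counting used strand is not given in the sources used here.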

Additional observations from a re-analysis of the deposited data

Results flagged for a closer look

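Igf2bp3 had log2 ratios of different sign between classes, though no rise is shown in any. Its log2 ratio (E15.5 over E12.5) was 0.42 in the immune class and below 0 in muscle, connective tissue, chondrocytes and endothelial cells. With 1 library per age this difference was not tested. The interval of the immune value included 0, and it rests on 9 UMIs in 19 cells at E12.5. The E12.5 immune cluster held S100a9 and C1qb cells together, while at E15.5 the S100a9 cells were a cluster of their own, and the part of this in the difference was not tested.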

How the results depend on the processing

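No called difference changed sign under any alternative run. Among values not called, Lin28b in chondrocytes ran from -2.33 to 1.70, the latter with free RNA subtracted, Hmga1 in the immune class reached 0.13 in female cells, and Igf2bp3 in the immune class ran from -0.03 with no doublets removed to 1.62 in male cells. The log2 ratio of Hmga2 moved beyond its counting interval as follows. Scaled to the median gene it was -3.11 in muscle, -3.45 in connective tissue and -3.15 in chondrocytes. With free RNA subtracted it was -3.24 in muscle and -2.30 in chondrocytes, where the gauge counts genes the class itself may express. In connective tissue it was -3.96 with at least 1000 genes per cell, -3.97 in cells thinned to 2000 UMIs, -3.48 in male cells (a UMI of a Y-linked gene and none of Xist), -4.04 in female cells (the reverse) and -3.97 in cells without Top2a and Mki67 UMIs. In chondrocytes it was -2.59 with all deposited barcodes, -2.99 with at least 1000 genes, -3.08 with no doublets removed, -3.85 at resolution 0.5, -2.83 at resolution 2.0, -2.28 with both libraries clustered together and -3.14 in male cells. It was -3.01 with only the chondrocyte clusters led by Col2a1, Acan or Matn1, an alternative chosen after seeing the data. In the immune class it was -2.82 with both libraries clustered together, which merges immune and mast cells, and thinned cells, male cells, female cells and subtracted free RNA left too few UMIs to assess it. The endothelial value stayed within its interval, from -3.12 to -2.52. Other called ratios also moved in chondrocytes, where with free RNA subtracted Igf2bp1 was -3.41, Igf2bp2 -2.86, Igf2bp3 -2.94 and Hmga1 -1.90. There Hmga1 was -4.24 in thinned cells, Igf2bp2 -1.12 with both libraries clustered together and Igf2bp3 -0.56 in male cells, which ends its call. Endothelial Hmga1 was -3.48 in thinned cells, from 10 UMIs and 1. In the immune class, Lin28b was -2.74 with no doublets removed and Igf2bp2 -1.48 with all deposited barcodes. In connective tissue Lin28b was -3.16 in male cells, with 0 UMIs in the later library, and Igf2bp1 ran from -1.87 to -1.33. Muscle values moved too, with Igf2bp1 from -2.37 to -1.61 and Hmga1 from -1.87 to -1.22. Igf2bp2 in muscle was -1.38 (-1.70 to -1.07) in cells without Top2a and Mki67 UMIs. In muscle cells with such a UMI it was -0.80 (-1.01 to -0.59), which misses the 2-fold rule.

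The number of genes called lower in the immune class was 4 in the main analysis, 0 in thinned cells, 1 in male cells, 1 in female cells, 1 in cells without Top2a and Mki67 UMIs, 2 with free RNA subtracted and 1 with a minimum of 30 UMIs, since each of these leaves few UMIs. In muscle, connective tissue, chondrocytes and endothelial cells it was 4 to 6 in all alternatives, with 4 in muscle, 5 in connective tissue, 4 in chondrocytes and 5 in endothelial cells when scaled to the median gene. The difference in median log2 ratio between genes with 2 or more and with 0 let-7 matches in connective tissue was -0.38, against -0.23 for 1 or more 8-base matches and -0.30 for miR-9-5p, the last chosen after seeing the data. The planned miR-124-3p was not run. Depth limits Lin28a in all classes and every gene in the immune class. No paired analysis was possible because there was 1 library per age.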

Other observations

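Schwann cells, outside the 5 classes compared, had 718 CPM (560 to 908) of Hmga2 in the earlier and 221 CPM (194 to 251) in the later library, with a log2 ratio of -1.70 (-2.09 to -1.29). Their Igf2bp2 was 236 CPM (150 to 354) and 204 CPM (178 to 233), a log2 ratio of -0.21 (-0.83 to 0.48) whose interval includes 0, and at E15.5 it was the highest of the 25 clusters. The later cluster also had Dct and Pmel, genes of melanocytes, among its leading genes. The E12.5 values rest on 25 cells. Epithelial cells, 16 and 25 in number, had 1249 CPM (959 to 1597) and 77.0 CPM (53.0 to 108) of Hmga2.

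Mast cells, a class of 70 cells named at E15.5 only by genes such as Cma1 and Cpa3, had 10.1 CPM (5.67 to 16.7) of Lin28b from 15 UMIs, against 0.593 CPM in connective tissue of the same library. Their Hmga1 was 32.4 CPM (23.9 to 43.0) and their Igf2bp3 81.1 CPM (67.3 to 97.0), while their Igf2bp2 was 11.5 CPM (6.69 to 18.4). The immune class of that library also combined a high Igf2bp3 level (132 CPM) with a low Igf2bp2 level (12.2 CPM).

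An unnamed E15.5 cluster of 70 cells led by Gm26917, with a median of 2818 UMIs, had 219 CPM of Igf2bp1, the highest level of that gene at E15.5, and 197 CPM of Hmga2.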
